A study of Rattus norvegicus with 16 samples.

Results

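Mast cells are resident immune cells that store proteases, histamine and, in rodents, serotonin in granules. They carry the high-affinity IgE receptor on their surface, and cross-linking of that receptor releases the granules. They need stem cell factor, the ligand of the receptor Kit, to survive, and in the lung they lie around vessels and airways. The 8 mast cell genes described here were taken by symbol: the granule proteases Cpa3, Cma1, Tpsab1 and Tpsb2, the IgE receptor chains Fcer1a and Ms4a2, the growth factor receptor Kit, and Hdc, the enzyme that makes histamine. Each had exactly 1 probe set annotated to its symbol alone, so all 8 were measured, among 14506 genes in all.

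The values came from the right lungs of 16 male Sprague-Dawley rats of 250 to 300 g, hybridised to 1 array each, in 4 groups of 4. Normoxia rats were the controls at normal oxygen. Hypoxia rats spent 2 weeks in a chamber at 362 mmHg, which corresponds to 10% oxygen at sea level, and received no drug. A group labelled hypoxia with estrogen received 17β-estradiol, the main circulating estrogen, at 75 µg/kg/day from a pump under the skin for 3 weeks, the first of them before the chamber. The last group had the same pump and chamber and was also injected daily with fulvestrant (ICI in the labels), which blocks the nuclear estrogen receptors, at 3 mg/kg/day. The labels used here give no age, and do not say whether rats without estradiol carried a pump. The title of the study puts the question whether estrogen receptors are needed for an effect of estradiol on lung genes in hypoxia.

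Values are log2 RMA signals, so a difference of 1 is a doubling. Lung genes such as Sftpc, a surfactant protein of alveolar type 2 cells, and Ager, of alveolar type 1 cells, had mean signals at or above percentile 99.8 of all genes. Of 6 genes of other tissues, the heart muscle gene Myh6 varied most among the normoxia lungs. It read 6.78, 6.44, 9.41 and 10.90 in normoxia replicates 1 to 4, and at most 8.17 in the hypoxic lungs. The part of heart tissue in the comparisons with normoxia was not tested. The treatment field of normoxia replicate 4 says hypoxia while its title says normoxia; the title was followed. The samples were whole lung, so fewer mast cells and less RNA per mast cell cannot be told apart. No batch, slide or scan date is given, so a batch and a group cannot be told apart either.

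Printed here are the stretches before the start of Kit and of Cpa3, Cma1 and Fcer1a, 3 members whose windows hold the same letters. They are 120 bases each from RefSeq (GRCr8, all on the minus strand), written 5′ to 3′ and ending just before the outermost annotated start of the gene. Capitals mark AGATAA or its reverse complement TTATCT, a form of the site bound by GATA factors.
Cpa3, chr2:104673254-104673373: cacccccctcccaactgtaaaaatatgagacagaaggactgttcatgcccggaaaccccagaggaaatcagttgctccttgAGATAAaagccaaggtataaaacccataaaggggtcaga
Cma1, chr15:33390134-33390253: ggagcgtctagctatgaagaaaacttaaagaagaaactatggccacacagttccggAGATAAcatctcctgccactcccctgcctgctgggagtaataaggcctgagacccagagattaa
Fcer1a, chr13:88224724-88224843: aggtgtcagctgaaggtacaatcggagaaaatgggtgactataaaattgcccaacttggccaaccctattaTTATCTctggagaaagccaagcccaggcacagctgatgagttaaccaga
Kit, chr14:32978896-32979015: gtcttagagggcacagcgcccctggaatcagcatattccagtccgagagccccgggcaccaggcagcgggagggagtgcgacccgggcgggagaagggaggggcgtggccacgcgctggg

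Windows of 250 bases before to 50 after the start were found for 7 of the 8 members, all except Ms4a2. On either strand, AGATAA occurred in 3 of these 7 (Cpa3, Cma1 and Fcer1a) and in 11.6% of all 33469 windows in the table, and TGATAA in 0 of 7 and 9.03%. The windows of Tpsab1 and Tpsb2 held neither. Their rat-to-rat correlations with these 3 genes, described below, were r = 0.73 to 0.91 for Tpsb2 and 0.60 to 0.82 for Tpsab1. The lowest, Tpsab1 with Fcer1a, had an adjusted permutation p of 0.0684. A relation between the letters and these correlations was not tested. GAGGAA, a form of the PU.1 site, occurred in Cpa3, Hdc and Tpsab1 and in 27.6% of all windows. The E-box letters CATGTG, a form bound by the mast cell factor Mitf, occurred in Cpa3, Fcer1a and Tpsb2 and in 13.97% of all windows, and CACGTG in 0 of 7 and 6.42%. ACGTG, a form of the hypoxia response element core that lies within CACGTG, occurred in 0 of 7 and in 19.3% of all windows. The other form, GCGTG, was not counted in the windows, and the stretch printed for Kit holds it. The palindromic estrogen response element (GGTCA and TGACC with 3 bases between them) occurred in 0 of 7 and in 9 windows in all. The 120 bases printed for Kit were 70.8% G or C, against 46.7% for Cpa3, 48.3% for Cma1 and 45.8% for Fcer1a. Letters in a window are a description and show no binding.

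Hypoxia against normoxia asks what low oxygen changed. Kit, the receptor tyrosine kinase for stem cell factor, was lower in every hypoxic lung, and none of the 4 proteases or the IgE receptor chains passed the test, although the means of all 6 were higher than in normoxia. Differences were tested with limma over all 14506 genes, with Benjamini-Hochberg adjusted p below 0.05 as the threshold. With it, 1 of the 8 members fell and 0 rose, against 2.43% of all genes lower, 3.21% higher and 5.63% in either direction. At an unadjusted p below 0.05 there were 2 of 8, Kit and Tpsb2, against 20.4% of all genes. The groups did not overlap for 1 member, again Kit, against 12.1% of all genes. The median log2 difference of the 8 was 0.34, beside 0.03 over all genes.

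Kit (probe set 10776437) read 10.78, 10.56, 10.59 and 10.59 in normoxia replicates 1 to 4. It read 9.78, 9.76, 10.04 and 10.04 in hypoxia. With estradiol it read 9.99, 9.75, 9.72 and 10.07, and with fulvestrant added 10.05, 10.04, 10.11 and 10.09. The lowest normoxia lung thus lay above the highest of the 12 hypoxic lungs, with no overlap, and normoxia replicate 4 lay with the other normoxia lungs.

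Kit fell by 0.73 on the log2 scale in hypoxia (SE 0.09, limma adjusted p = 0.000173), from 10.63 ± 0.10 to 9.90 ± 0.15 (SD, n = 4 each), or 1.66-fold. In hypoxia with estradiol it was 1.68-fold below normoxia (log2 -0.75, SE 0.09, limma adjusted p = 0.000126), and with fulvestrant added 1.48-fold (log2 -0.56, SE 0.09, limma adjusted p = 0.00159). It was the member called in each of these comparisons, and the other 7 did not pass. Over all genes, limma called 5.21% with estradiol (2.34% lower) and 2.96% with fulvestrant added (0.993% lower), and the groups did not overlap with normoxia for 9.21% and 12.3%. Every fit that left out 1 array kept these calls. With normoxia replicate 4 counted as hypoxia, as its treatment field says, Kit had a limma adjusted p of 0.0802 in hypoxia and 0.0998 with estradiol and fulvestrant, and passed with estradiol alone (limma adjusted p = 0.0170).

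**Figure D1:**
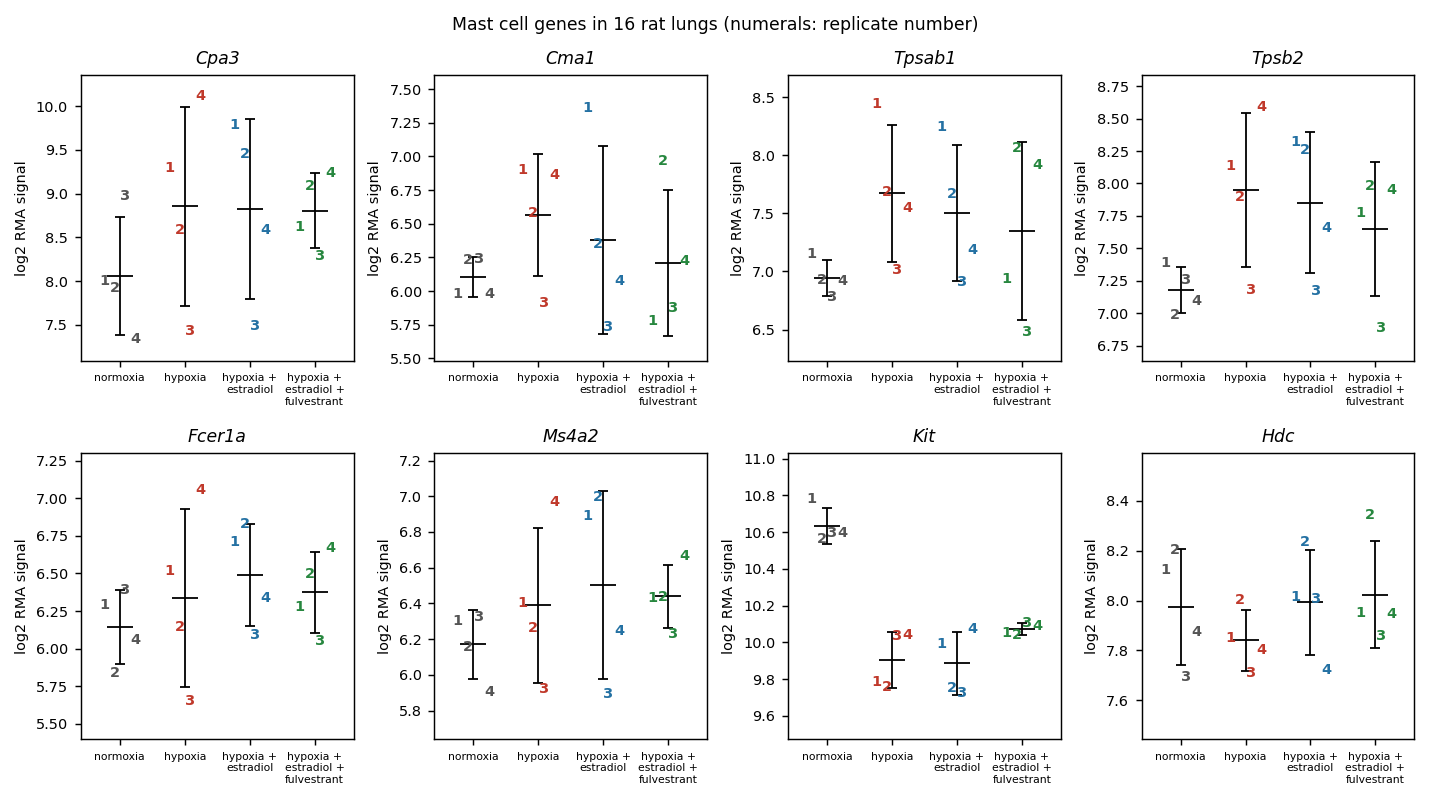
Log2 RMA signal (vertical axis, a scale of its own for each gene) of the 8 mast cell genes in the 4 groups, with each array drawn as its replicate number, the mean as a bar and the SD (n = 4) as whiskers. Kit lies near 10.6 in normoxia and between 9.72 and 10.11 in the 12 hypoxic lungs, while the proteases and IgE receptor chains spread widely inside the hypoxic groups.

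Kit is not a gene of mast cells alone: in the mouse lung, capillary endothelium makes it too. The list of lung capillary endothelial markers, 13 of 15 measured, did not move 1 way in hypoxia: 4 rose and 3 fell, with a median of -0.03 beside 0.03 over all genes. Egfl7 (0.73) and Gpihbp1, which anchors lipoprotein lipase (0.86), rose, and Plvap, of endothelial diaphragms (-0.83), and the prostaglandin-degrading enzyme Hpgd (-1.66) fell. The mean of the list above normoxia ran from -0.08 to 0.07 in normoxia, from -0.08 to 0.01 in hypoxia, from -0.42 to -0.11 with estradiol and from -0.07 to 0.05 with fulvestrant added. Kit's deviations from the group means correlated with those of the list mean at r = 0.65 over 16 arrays, a description without a test. Of the 13 markers 3 had an r of at least 0.5 with Kit (23.1%), against 4.58% of all genes. List means of other cells gave values of similar size with the opposite sign, -0.59 for basophil and -0.56 for neutrophil markers. The part of endothelial cells in the fall of Kit was not tested.

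The ligand and partners of Kit gave few calls. Kitlg, which encodes stem cell factor, differed by -0.04 between hypoxia and normoxia (limma adjusted p = 0.844), and by -0.14 with estradiol and 0.22 with fulvestrant added, neither past the threshold. Of 18 measured genes of Kit ligand and signalling 3 fell in hypoxia, 0 rose and 15 did not pass (median -0.01): the kinase subunits Pik3cd (-0.51) and Pik3r1 (-0.31), and Il33 (-0.51), an epithelial cytokine that activates mast cells. With estradiol the kinase Jak2 rose (0.29) and 0 fell. Gata2, a transcription factor that mast cells need and that endothelial cells also make, fell in hypoxia from 11.38 ± 0.14 to 10.80 ± 0.13 (SD, n = 4; log2 -0.58, limma adjusted p = 0.0247).

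Cpa3, the mast cell carboxypeptidase (probe set 10822493), read 7.996, 7.92, 8.97 and 7.34 in normoxia and 9.29, 8.58, 7.43 and 10.11 in hypoxia. With estradiol it read 9.78, 9.45, 7.48 and 8.58, and with fulvestrant added 8.61, 9.08, 8.29 and 9.24. All 4 groups overlapped, and hypoxia replicate 3 and estradiol replicate 3 read as low as the lowest normoxia lungs. The mean was 8.06 ± 0.68 in normoxia and 8.85 ± 1.14 in hypoxia (SD, n = 4), a log2 difference of 0.80 with a 95% interval of -0.34 to 1.94 (limma adjusted p = 0.438). That interval reaches from 0.79 to 3.82 times the normoxia level, so it holds both no change and a large rise.

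Tpsb2, a tryptase that is the counterpart of mouse mast cell protease 6 (probe set 10732400), read 7.38, 6.98, 7.26 and 7.10 in normoxia and 8.14, 7.89, 7.18 and 8.59 in hypoxia. With estradiol it read 8.32, 8.26, 7.17 and 7.65, and with fulvestrant added 7.77, 7.98, 6.88 and 7.95. Of the hypoxia lungs 3 lay above all normoxia lungs, and replicate 3 lay among them. The log2 difference was 0.77 (95% interval 0.13 to 1.41, limma adjusted p = 0.157). Without hypoxia replicate 3 it was 1.03 and passed (limma adjusted p = 0.0455), so the call turned on that array.

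Tpsab1, the other tryptase and the next gene on chromosome 10 (probe set 10741416), read 7.15, 6.93, 6.78 and 6.91 in normoxia and 8.44, 7.68, 7.01 and 7.55 in hypoxia. With estradiol it read 8.25, 7.67, 6.91 and 7.19, and with fulvestrant added 6.94, 8.06, 6.48 and 7.92. Hypoxia replicate 3 lay inside the normoxia range and the other 3 above it (log2 difference 0.73, 95% interval -0.02 to 1.48, limma adjusted p = 0.261). The 4 normoxia lungs lay within 0.37 of each other, against 1.43 for the 4 hypoxia lungs. The tryptases are close relatives, and how far their probe sets cross-hybridise was not tested.

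Cma1, a chymase that in rodents is a connective tissue mast cell protease and in humans makes angiotensin II (probe set 10783989), read 5.98, 6.23, 6.24 and 5.98 in normoxia and 6.90, 6.58, 5.91 and 6.86 in hypoxia. With estradiol it read 7.36, 6.35, 5.73 and 6.08, and with fulvestrant added 5.78, 6.97, 5.87 and 6.22. Hypoxia replicate 3 was again the exception, below all normoxia lungs where the other 3 were above (log2 difference 0.46, 95% interval -0.21 to 1.12, limma adjusted p = 0.449). Its mean signal stood at percentile 19.2 of all genes.

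The IgE receptor chains were dim as well, at percentiles 19.5 (Fcer1a) and 19.9 (Ms4a2). Fcer1a, the chain that binds IgE (probe set 10770057), read 6.29, 5.84, 6.39 and 6.06 in normoxia, 6.51, 6.14, 5.65 and 7.05 in hypoxia, 6.71, 6.83, 6.09 and 6.34 with estradiol, and 6.27, 6.50, 6.05 and 6.67 with fulvestrant added. Ms4a2, the signal-amplifying beta chain (probe set 10714008), read 6.30, 6.15, 6.32 and 5.90 in normoxia, 6.40, 6.26, 5.92 and 6.97 in hypoxia, 6.89, 6.99, 5.89 and 6.24 with estradiol, and 6.43, 6.43, 6.23 and 6.66 with fulvestrant added. The groups overlapped for both, with the lowest reading of the hypoxia group in replicate 3. The log2 differences between hypoxia and normoxia were 0.19 for Fcer1a (95% interval -0.32 to 0.71, limma adjusted p = 0.704) and 0.22 for Ms4a2 (95% interval -0.27 to 0.71, limma adjusted p = 0.646). Fcer1a changed sign without hypoxia replicate 4 (-0.04).

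Hdc, histidine decarboxylase (probe set 10849522), read 8.12, 8.20, 7.69 and 7.87 in normoxia and 7.85, 8.0005, 7.71 and 7.80 in hypoxia. With estradiol it read 8.01, 8.23, 8.01 and 7.72, and with fulvestrant added 7.95, 8.34, 7.86 and 7.95. The groups overlapped, and the 16 lungs spanned 0.65 on the log2 scale, the narrowest range among the members. Hypoxia differed from normoxia by -0.13 (95% interval -0.41 to 0.14, limma adjusted p = 0.618).

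**Figure D2:**
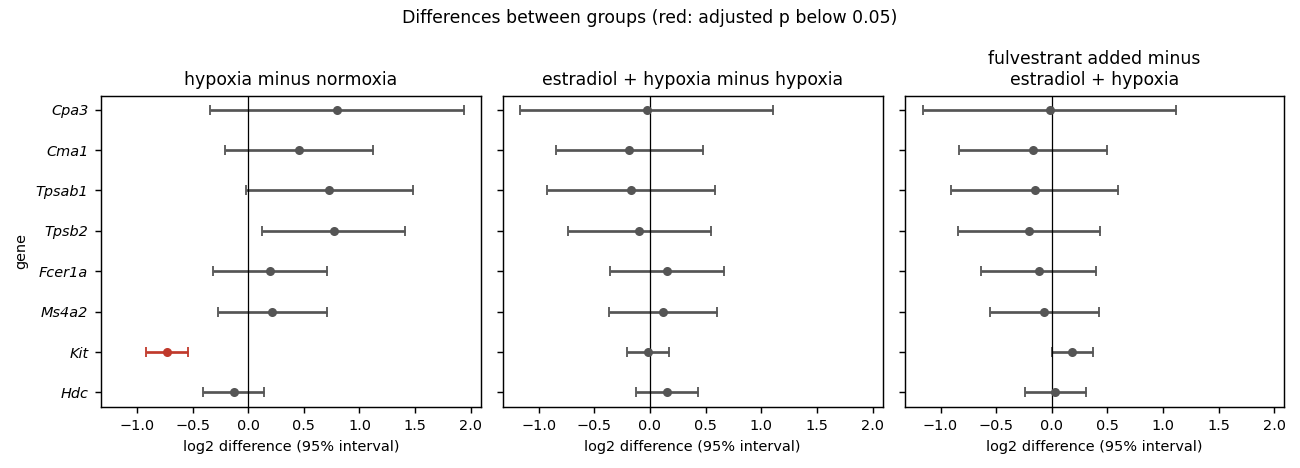
Log2 difference (horizontal axis) of each of the 8 genes in the 3 main comparisons, with 95% intervals from the limma fit and n = 4 arrays per group. Kit in hypoxia against normoxia (-0.73) is the red point; the intervals of Cpa3 are the widest, from -0.34 to 1.94 in that comparison.

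The next comparison, estradiol-treated against untreated hypoxic lungs, addresses the effect of the hormone under low oxygen. No member passed: 0 of 8, with 0.772% of all genes called by limma, and 0 of 8 also at an unadjusted p below 0.05, against 16.1% of all genes. The differences ran from -0.19 (Cma1) to 0.15 (Hdc) on the log2 scale, with a median of -0.03 beside -0.02 over all genes. For Kit the 95% interval was -0.21 to 0.17, so a rise as large as its fall of 0.73 in hypoxia lay outside it. For Cpa3 (log2 -0.03) it was -1.17 to 1.11, wide enough to hold a doubling in either direction.

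Neutrophils also make histamine in the mouse, so their markers stand beside Hdc here. Of 19 measured neutrophil markers 7 rose with estradiol and 0 fell, led by the collagenase Mmp8 (log2 1.94), the IgA receptor Fcar (1.82), the calprotectin subunit S100a8 (1.74) and Retnlg (1.73). The list mean above normoxia was between 0.28 and 1.14 with estradiol and between -0.52 and 0.03 in hypoxia alone, where Lcn2 (1.26) and the chemokine receptor Cxcr1 (1.22) were higher than in normoxia. Hdc differed by 0.15 between the same groups (95% interval -0.12 to 0.43, limma adjusted p = 0.603). Over 16 arrays its deviations from the group means correlated at r = 0.61 with those of the neutrophil list mean, 0.72 with the eosinophil list and 0.61 with the T and natural killer cell list, as a description, so the value was not particular to neutrophils. The part of any of these cells in the Hdc signal was not tested.

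Fulvestrant added to estradiol asks whether blocking the receptors undid what estradiol did. Again 0 of 8 members passed, where limma called 0.0483% of all genes, and 0 of 8 had an unadjusted p below 0.05, against 14.8% of all genes. Differences ran from -0.20 (Tpsb2) to 0.19 (Kit). Kit came nearest, at 10.07 ± 0.03 against 9.88 ± 0.17 (SD, n = 4; 95% interval of the log2 difference -0.001 to 0.37, limma adjusted p = 0.341). Estradiol with fulvestrant against hypoxia alone gave 0 of 8 as well, and 0% of all genes by limma, with 0 of 8 members and 6.96% of all genes at an unadjusted p below 0.05. There the 4 Kit readings with fulvestrant all lay above the 4 of hypoxia alone (log2 difference 0.17, limma adjusted p = 0.749). Over all genes, the same groups did not overlap for 5.03%. These comparisons share arrays with those above and are not independent of them.

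The proteases and IgE receptor chains varied between rats of the same group more than nearly all other genes did. The pooled SD within groups was 0.87 for Cpa3, larger than for all but 32 of the 14506 genes, and 0.57 for Tpsab1, 0.50 for Cma1, 0.49 for Tpsb2, 0.39 for Fcer1a and 0.37 for Ms4a2, against a median of 0.12 over all genes. For Kit it was 0.13 and for Hdc 0.20. Cpa3 spanned 6.84-fold over the 16 lungs and 2.68 on the log2 scale within hypoxia alone. Its range within a group was 1.63 in normoxia, 2.30 with estradiol and 0.95 with fulvestrant added. The other proteases and receptor chains had ranges from 0.26 (Cma1) to 0.55 (Fcer1a) in normoxia and from 0.99 (Cma1) to 1.43 (Tpsab1) in hypoxia. Each of them ranged more widely in every hypoxic group than in normoxia, while the pooled SD takes all groups together.

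The same lungs were high or low for these 6 genes. Hypoxia replicate 3 had the lowest reading of its group for 6 of the 6, estradiol replicate 3 for 6 and fulvestrant replicate 3 for 5. The mean deviation of the 6 genes from the group mean was -0.78 in the first of these arrays, -0.71 in the second and -0.50 in the last. Hypoxia replicate 4 (mean deviation 0.56), estradiol replicate 1 (0.63) and normoxia replicate 3 (0.23) each had the highest reading of their group for 4 of the 6. In normoxia the lowest readings were spread over all 4 arrays, with mean deviations between -0.22 and 0.23. Replicate numbers follow the order of submission, so a shared number shows no shared origin.

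**Figure D3:**
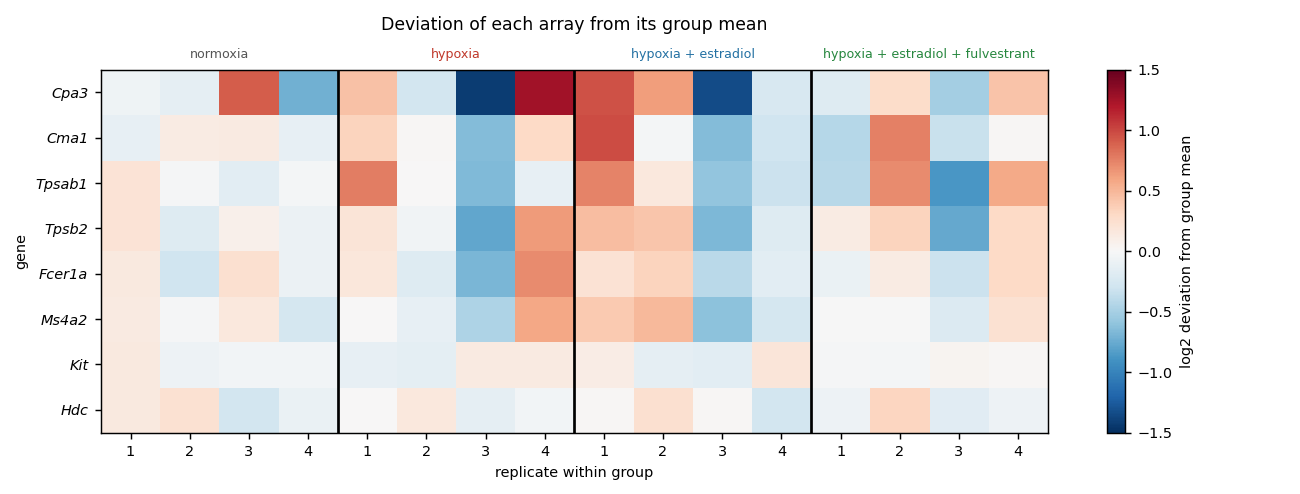
Log2 deviation of each array (columns, by replicate number within the 4 groups) from its group mean for the 8 genes (rows), blue for lower and red for higher. Hypoxia replicate 3 and estradiol replicate 3 are blue for all 4 proteases and both IgE receptor chains, while the Kit and Hdc rows stay pale.

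Correlations of deviations from the group mean over the 16 arrays put numbers on this, for 28 pairs of members, with permutation of arrays within groups (100000 resamples, two-sided) and adjustment over the 28. Cpa3 and Ms4a2 gave Pearson's r = 0.93 (permutation p = 5e-05, adjusted p = 0.00098) and Spearman's rho = 0.95 (adjusted permutation p = 0.00028), and r = 0.90 without the 2 arrays farthest from the median of Cpa3. Of all 14505 other genes on the array only 3 had an r with Cpa3 as high as Ms4a2, which is among them. Tpsb2 and Fcer1a gave r = 0.91, and no gene on the array had a higher r with Tpsb2. All 15 pairs of the proteases and receptor chains had r between 0.55 and 0.93 and rho between 0.59 and 0.95, and r between 0.56 and 0.94 without the 2 farthest arrays. The lowest was Tpsab1 with Ms4a2.

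Kit and Hdc did not follow. Kit gave r between -0.41 and 0.15 with the 7 other members, with 0 of 7 pairs at an adjusted permutation p below 0.05, and its r of 0.10 with Cpa3 (rho 0.13, adjusted permutation p = 0.852 and 0.76) was exceeded or matched by 6574 genes. Hdc gave r between 0.12 (Cpa3) and 0.49 (Tpsab1) with the proteases and receptor chains. Of the 28 pairs, 12 had an adjusted permutation p below 0.05 for r, each between 2 proteases or receptor chains, and 12 for rho, of which 1 was Tpsab1 with Hdc (rho 0.59).

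**Figure D4:**
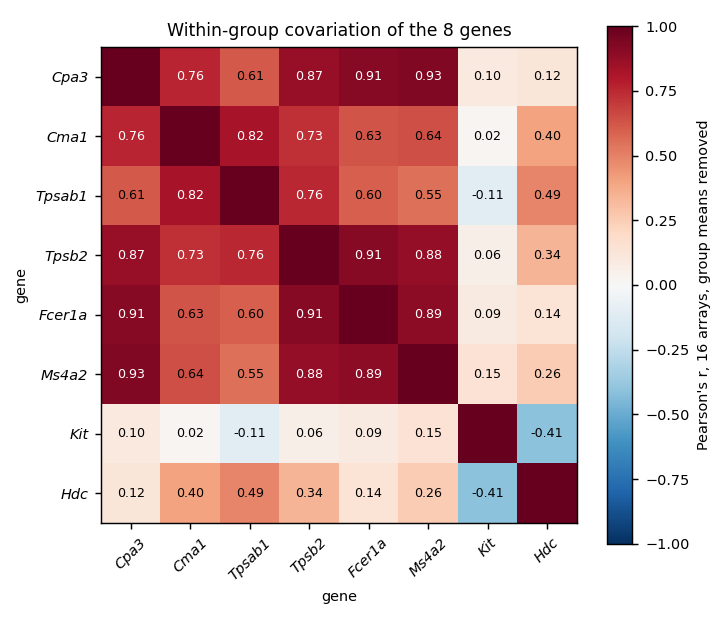
Pearson's r (colour and numeral) between each pair of the 8 genes over 16 arrays after removal of group means. The 6 proteases and receptor chains form a block of 0.55 to 0.93, and the Kit row runs from -0.41 to 0.15.

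Genes outside the members whose deviations were most like theirs included other known mast cell genes. For Cpa3 the 3 with the highest r were Mcpt10, a mast cell protease (0.94), Tph1, which makes serotonin in rodent mast cells (0.93), and the glutamine transporter Slc38a5 (0.90). The same Mcpt10 and Tph1 were among the top 3 for Ms4a2 (0.96 each), Fcer1a (0.91 and 0.89) and Tpsb2 (0.89 and 0.88). Ms4a2 and Tpsb2 had as the remaining gene the leukotriene receptor Cysltr2 (0.87 and 0.89), and Fcer1a the protease Mcpt1 (0.87). The top genes were others for Cma1, namely Mcpt1l1 (0.91) and the red cell genes Slc4a1 (0.90) and Rhd (0.87), and for Tpsab1, namely Zfp18 (0.90), Or5b100 (0.85) and Pold1 (0.84). Kit was most like Blzf1 (0.85), Abhd18 (0.83) and Nqo2 (0.82), and Hdc like Fam117a (0.89), Ascl3 (0.86) and Pdcd1lg2 (0.84), none of them genes of the lists used here. With 14505 genes and 16 arrays, some genes reach such values for any gene.

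Mcpt10 read 7.38, 6.79, 7.67 and 6.42 in normoxia, 7.71, 7.35, 6.12 and 9.07 in hypoxia, 8.94, 8.26, 6.40 and 6.58 with estradiol, and 7.38, 7.49, 6.81 and 8.10 with fulvestrant added. Tph1 read 6.54, 6.57, 6.90 and 6.47, then 6.96, 6.83, 6.55 and 7.78, then 7.52, 7.46, 6.25 and 6.64, and then 6.88, 7.15, 6.69 and 7.32 in the same order of groups. The lungs that read low or high for Cpa3 did so for both, and the groups overlapped.

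**Figure D5:**
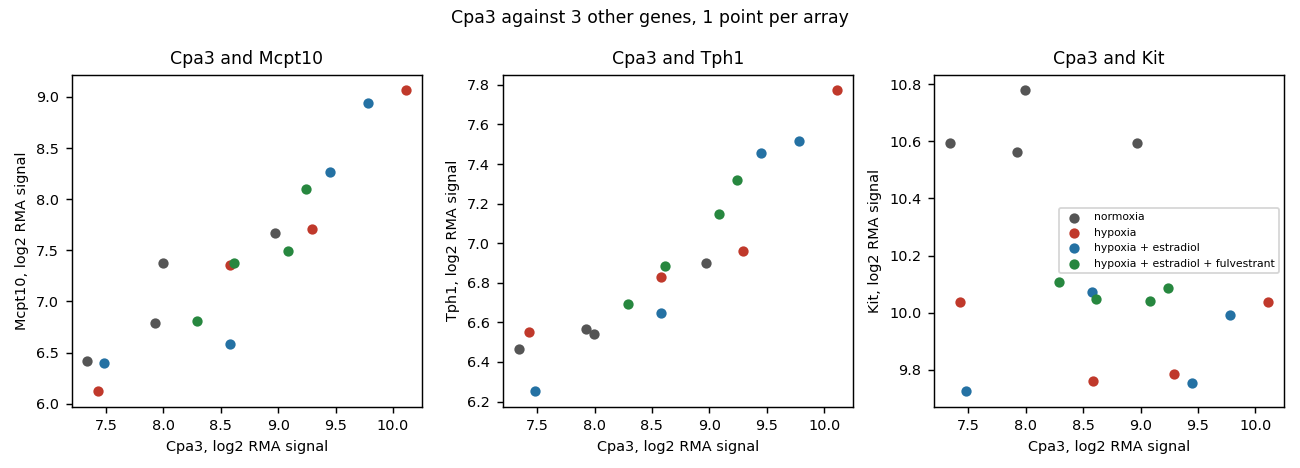
Log2 RMA signal of Mcpt10, Tph1 and Kit (vertical axes) against Cpa3 (horizontal axis), 1 point per array, coloured by group. Mcpt10 and Tph1 rise with Cpa3 in each group, while Kit lies in 2 bands, normoxia at 10.56 or above and the 12 hypoxic lungs at 10.11 or below, whatever the level of Cpa3.

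Among other genes that mast cells make, 34 listed and 27 measured, 10 had r of at least 0.5 with Cpa3 after removal of group means (37.0%), against 7.78% of all genes. Besides Mcpt10, Tph1 and Mcpt1 (0.89) these were Hpgds, which makes prostaglandin D2 (0.83), Mcpt1l1 (0.82), the vesicular amine transporter Slc18a2 (0.80), Rab27b of granule transport (0.80), Il1rl1, the receptor for interleukin 33 (0.78), Mrgprx2 (0.71) and Mcpt4 (0.55), which is very dim. With Kit 0 of the 27 reached 0.5, against 4.58% of all genes, a small share as well. The other 17 had r between -0.22 and 0.48 with Cpa3, among them the proteases Tpsg1 (0.12), Mcpt3 (-0.06), Mcpt9 (-0.11) and Ctsg (-0.16). An r of at least 0.5 with Cpa3 was also reached by 7 of 10 erythroid (70%), 3 of 13 capillary and 1 of 4 platelet markers. The median r was 0.61 for the erythroid list, which these arrays prompted (described below), and 0.41 for the mast cell list. Of the basophil, T and natural killer cell, and dendritic cell and macrophage markers 0 reached 0.5. A share above that of all genes was thus not particular to mast cell genes.

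Few genes of that list were called by group. In hypoxia 2 of 27 rose, Mrgprx3 (log2 0.82) and the granule membrane protein Cd63 (0.41), and 3 fell, the nucleoside transporter Slc29a1 (-0.86), Gata2 and Rab27b (-0.30), with 22 not past the threshold and a median of 0.09. Mcpt1l1 had the largest difference, 1.72, with no overlap between the groups, and did not pass (limma adjusted p = 0.142). Hpgds (0.13), Slc18a2 (0.23) and Il1rl1 (-0.07) did not pass either. With estradiol, and with fulvestrant added, 0 of 27 passed, with 3 and 5 at an unadjusted p below 0.05. Over all genes the shares at that unadjusted p were 16.1% and 14.8%.

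Of 25 measured genes of IgE receptor signalling 1 rose in hypoxia, the calcium channel Orai1 (log2 0.30), and 4 fell, among them the phospholipase Plcg2 (-0.38) and the adaptors Lat2 (-0.36) and Lat (-0.35), with a median of -0.10. T and natural killer cells use several of these genes too, and 12 of 16 of their markers fell and 0 rose in the same comparison, such as Gzma (-1.32), Gzmk (-1.11), Klrd1 (-1.04) and Prf1 (-0.98); their part in the result was not tested. Fcer1g, the signalling chain that the IgE receptor shares with other receptors, differed by 0.12 (limma adjusted p = 0.669). With estradiol and with fulvestrant added 0 of 25 passed, with 4 and 2 at an unadjusted p below 0.05, against 16.1% and 14.8% of all genes. Il7r of lymphocytes rose with estradiol (0.90).

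Of 9 genes of histamine breakdown, transport and reception 1 rose in hypoxia, Aoc1, the diamine oxidase that degrades histamine (log2 1.15, SE 0.25, limma adjusted p = 0.0111), and 0 fell. The other degrading enzyme, Hnmt (0.03), and the receptors Hrh1 (-0.11) and Hrh2 (0.04) did not pass. Among 14 measured genes of a list of peptidases, peptidase targets and peptidase inhibitors 3 rose in hypoxia, the serpin Serpina3n (2.54), angiotensinogen Agt (0.77) and Timp1 (0.57). The angiotensin-converting enzyme Ace (-0.23) was the 1 that fell. Neither list had a gene past the threshold with estradiol or with fulvestrant added.

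Markers of other cells that could carry some of the same genes were read in the same lungs. Basophils share the IgE receptor, and their protease genes Mcpt8 and Prss34 stood at percentiles 7.73 and 15.97 of all genes; Mcpt8 differed by -0.01 between hypoxia and normoxia (limma adjusted p = 0.989), and the 4 basophil markers outside the members had r between -0.32 and 0.18 with Cpa3. Of 7 eosinophil markers 1 fell in hypoxia, Ccr3 (-0.36). Of 12 markers of dendritic cells and macrophages 2 rose in hypoxia, the complement genes C1qb (0.66) and C1qa (0.60), and 1, the mannose receptor Mrc1, rose with estradiol (0.49) and fell with fulvestrant added (-0.57), a pair of comparisons that share arrays. Of the capillary markers Apln (-0.81) and Car4 (-0.33) fell with estradiol, and of the lung markers the alveolar gene Hopx fell in hypoxia (-0.22). Of 4 measured platelet markers 0 passed in any main comparison.

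Red cell genes also varied between these lungs. The mean of 10 erythroid markers above normoxia, a list that was added after Slc4a1 and Rhd had been seen beside Cma1 and that holds both, was 1.68, 1.35, -0.05 and 1.46 in hypoxia replicates 1 to 4, 1.40, 0.35, -0.12 and 0.74 with estradiol, 0.68, 1.64, 0.77 and 0.52 with fulvestrant added, and between -0.15 and 0.23 in normoxia. Hypoxia replicate 3 and estradiol replicate 3, lowest for the mast cell genes, were the lowest of their groups here as well. The fulvestrant group ran otherwise: replicate 3, lowest for 5 of the 6 mast cell genes, was second highest here, and replicate 4 was lowest. Over the 16 arrays the deviations of this mean correlated at r = 0.85 with Cma1, 0.68 with Cpa3 and 0.08 with Kit, as a description. Since the list was prompted by these same arrays, it is no independent evidence of a relation. The vessels had been flushed with saline before freezing, and the part of red cell content in the spread of the mast cell genes was not tested.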

How the data were processed

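The authors deposited 1 table of log2 values for 29214 probe sets and 16 arrays, made with RMA and Partek per the submitters' processing notes, which give no versions or settings; the genome build is not given in the sources used here. RMA forces the arrays to 1 distribution and would hide a change common to most genes. Arrays have no count depth, and the number of arrays sets the precision. A symbol for exactly 1 gene was given for 15310 probe sets, 323 had several and 13581 none; the brightest probe set stood for a gene. Array medians lay between 7.69 and 7.77, and arrays correlated at 0.985 to 0.996. Groups follow the titles.

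Differences were tested with limma 3.58.1 in R 4.3.3, in 1 model of 4 group means with empirical Bayes moderation, and the code was tested on simulated data. The members and lists were chosen with earlier results of these data known. Named are all members, up to 4 passing genes per list and main comparison by size, a few fixed genes (Gata2, Kitlg, Fcer1g, Il1rl1, Hpgds, Slc18a2, Mcpt8, Hrh1, Hrh2, Hnmt; Mcpt2 had no probe set of its own) and the 3 genes most like each member; Rab27b, Mcpt1l1 and others beside a correlation or a small count were named after their values were seen. Alternatives were median centring, quantile normalization again, leaving out the dimmest 25% of genes, averaging probe sets, all probe sets, only the 2 groups compared, normoxia replicate 4 as hypoxia, each array left out, estradiol replicates 2 and 3 left out, array weights and a variance trend. Intervals came from the limma fit in R, and correlations and promoter matches were computed in Python 3.11.15.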

Additional observations from a re-analysis of the deposited data

Results flagged for a closer look

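Kit in normoxia replicate 1, at 10.78, stood far above the other 3 normoxia lungs, which read 10.56, 10.59 and 10.59; the gap was 0.85 of the range of the group, over Dixon's critical value for 4 samples. It was the 1 group flagged among 32 groups of 4 looked at, and chance flags about 1 in 20. Without this array the fall of Kit in hypoxia was -0.68 on the log2 scale.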

How the results depend on the processing

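Kit kept its call against normoxia in each of the 3 hypoxic groups under all scaling, filter, probe set, weight and trend settings and each time 1 array was left out (highest limma adjusted p among the latter 0.00104 in hypoxia and 0.00767 with fulvestrant added). The exception was normoxia replicate 4 counted as hypoxia: the members called lower then numbered 0 in hypoxia and 0 with fulvestrant added, in place of 1 each (Kit -0.60 and -0.57). With that regrouping the count of all genes called in hypoxia went from 817 to 40, and the cause was not tested. That count was 442 without hypoxia replicate 1, 515 without replicate 2, 428 without normoxia replicate 1 and 541 without replicate 2. It rose to 986 without hypoxia replicate 3 and to 1153, the highest, with array weights. With 1 choice changed at a time, the count for estradiol against hypoxia went from 112 to between 0 and 355, and that for fulvestrant against estradiol from 7 to between 0 and 331, both highest without estradiol replicate 4. Against normoxia the counts went from 756 to between 216 and 887 with estradiol and from 430 to between 100 and 786 with fulvestrant added, and the cause was not tested. Members called higher in hypoxia ranged from 0 to 1 with 1 array left out, the 1 being Tpsb2.

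Differences that changed sign were small against their errors, and none had been called. In hypoxia Fcer1a ran from -0.042 to 0.42 with 1 array left out. For estradiol against hypoxia the same ranges were -0.51 to 0.42 for Cpa3, -0.51 to 0.030 for Cma1, -0.42 to 0.088 for Tpsab1, -0.36 to 0.13 for Tpsb2, -0.078 to 0.39 for Fcer1a, -0.046 to 0.32 for Ms4a2 and -0.082 to 0.034 for Kit. For fulvestrant against estradiol they were -0.46 to 0.30 for Cpa3, -0.42 to 0.16 for Cma1, -0.39 to 0.14 for Tpsab1, -0.43 to 0.050 for Tpsb2, -0.27 to 0.10 for Ms4a2 and -0.076 to 0.11 for Hdc. For estradiol against normoxia they were -0.053 to 0.49 for Cma1 and -0.072 to 0.11 for Hdc. For fulvestrant against hypoxia they were -0.52 to 0.37 for Cpa3, -0.20 to 0.27 for Fcer1a and -0.105 to 0.24 for Ms4a2, and against normoxia -0.15 to 0.25 for Cma1 and -0.055 to 0.13 for Hdc.

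Without estradiol replicates 2 and 3, estradiol against hypoxia gave 0.33 for Cpa3, 0.15 for Cma1, 0.044 for Tpsab1, 0.036 for Tpsb2 and 0.13 for Kit, and estradiol against normoxia -0.11 for Hdc. With normoxia replicate 4 as hypoxia, estradiol against hypoxia gave 0.27 for Cpa3 and 0.073 for Tpsb2, estradiol against normoxia -0.012 for Hdc, and fulvestrant against hypoxia 0.26 for Cpa3. Array weights gave 0.067 for Cpa3 and 0.042 for Kit in estradiol against hypoxia, 0.067 for Cpa3 in fulvestrant against estradiol, 0.13 for Cpa3 in fulvestrant against hypoxia and -0.026 for Hdc in estradiol against normoxia. Without the 2 arrays farthest from the median, r was 0.72 for Cma1 with Tpsab1 (adjusted permutation p = 0.0608, no longer passing), 0.78 for Cma1 with Ms4a2 (now passing, 0.0382), -0.23 for Cma1 with Kit, 0.11 for Tpsab1 with Kit and -0.51 for Ms4a2 with Kit. No paired analysis was possible because the replicate numbers are the order of submission and tie no rat of one group to a rat of another. Cma1 and both receptor chains were near the dim end of the arrays, and 4 arrays a group limit all intervals.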
